A study of Caenorhabditis elegans with 2 samples.

Results

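The mitochondrial ribosomal protein genes of Caenorhabditis elegans were taken as the protein-coding genes of the nuclear chromosomes whose names begin with mrpl- (large subunit) or mrps- (small subunit) in the Ensembl annotation. This gave 70 of 19973 protein-coding genes, of which 41 carried a large and 29 a small subunit name. They are called members here. Binding of F23B12.7, which RefSeq annotates as an uncharacterised protein, had been mapped by chromatin immunoprecipitation and sequencing (ChIP-seq) with an antibody against GFP. The animals were whole young adult hermaphrodites of strain OP429, genotype unc-119(tm4063) III; wgIs429, in which an inserted transgene makes F23B12.7 with a GFP and FLAG tag at its C terminus. There was 1 group, with 2 biological replicates of this strain, and no strain without the transgene was used here. Whole animals mix all tissues, so a peak in a few tissues and a weaker one in all of them cannot be told apart. The labels give the age as unknown and do not name the promoter that drives the transgene.

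Mitochondrial ribosomes make the few respiratory chain subunits that mitochondrial DNA encodes, while every protein of these ribosomes is encoded in the nucleus, made in the cytosol and imported. In the current ribosome nomenclature the prefix u marks a protein family found in all domains of life, b one shared with bacteria and m one particular to mitochondria. Many C. elegans genes lie in operons, where a promoter ahead of the first gene serves closely spaced genes on the same strand and trans-splicing separates their transcripts. The start of a downstream gene is then not where its transcription begins, and annotated starts of first genes can also be trans-splice sites.

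RefSeq products named 69 of the 70 as ribosomal proteins, the exception being mrps-27, an Ig-like domain protein. For 2 genes the product named the other subunit, since mrps-18C was given as uL3m and mrpl-48 as a uS10 domain protein, and the symbols were kept for the counts here. A gene was said to have a peak when a summit of the authors' thresholded list lay within 500 bp of its annotated start. That list, called the IDR list, was thresholded by the authors on the irreproducible discovery rate, with 1684 of its 1707 peaks on nuclear chromosomes. Its lowest nuclear signal, 37.995, stood just above the highest signal outside it in the authors' list for both replicates pooled, 37.988. The IDR list thus matched a cut on pooled signal. Of the 1684 peaks, 1682 overlapped a region of replicate 1 and 1676 one of replicate 2. A place in the list therefore does not show that a given peak ranked alike in both replicates. The signal of a peak is the authors' own value, used to describe and rank peaks within 1 list, and rank 1 is the strongest nuclear peak.

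The genome within 50 bp of the summit is printed for 8 of the peaks at these genes, the strongest on chromosomes II to V, because they show what the bound DNA looks like at starts of both subunits. Coordinates are 1-based in ce11 (WBcel235), and each sequence is read from the RefSeq genome on the strand of the named gene. Capitals mark GCGCTCC on either strand, a run of letters picked after these windows had been read.
mrpl-49 (chrV:12728417-12728517, plus strand): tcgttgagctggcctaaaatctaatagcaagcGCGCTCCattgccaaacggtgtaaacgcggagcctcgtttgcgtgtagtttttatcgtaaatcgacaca
mrps-17 (chrIII:6431893-6431993, minus strand): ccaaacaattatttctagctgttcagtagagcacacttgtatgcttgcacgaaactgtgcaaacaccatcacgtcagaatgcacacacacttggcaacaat
mrps-7 (chrIV:14767895-14767995, minus strand): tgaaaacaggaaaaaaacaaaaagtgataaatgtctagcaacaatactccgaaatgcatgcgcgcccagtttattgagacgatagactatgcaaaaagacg
mrps-24 (chrIV:7709833-7709933, plus strand): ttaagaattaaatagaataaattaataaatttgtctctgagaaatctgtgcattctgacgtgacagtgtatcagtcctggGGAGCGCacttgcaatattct
mrpl-45 (chrIII:1202299-1202399, minus strand): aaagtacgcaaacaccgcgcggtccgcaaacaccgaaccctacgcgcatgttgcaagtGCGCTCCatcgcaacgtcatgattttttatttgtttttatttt
mrpl-28 (chrII:156019-156119, minus strand): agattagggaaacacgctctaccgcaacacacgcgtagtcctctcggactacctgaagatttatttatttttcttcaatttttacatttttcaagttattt
mrps-23 (chrIII:9523758-9523858, minus strand): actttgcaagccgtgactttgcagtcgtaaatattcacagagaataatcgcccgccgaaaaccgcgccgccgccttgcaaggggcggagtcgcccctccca
mrps-31 (chrIII:3630579-3630679, minus strand): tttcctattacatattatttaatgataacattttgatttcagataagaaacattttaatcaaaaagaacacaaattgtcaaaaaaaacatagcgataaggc
The windows of mrpl-49, mrps-24 and mrpl-45 hold the marked letters, and those of the other 5 genes do not. The mrps-24 window is also upstream of mrpl-1, read from the other strand.

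An IDR peak lay at 19 of the 70 mitochondrial ribosomal protein genes, or 27.1% (exact 95% interval 17.2% to 39.1%), beside 6.72% of all protein-coding genes. The interval treats genes as independent and covers counting error only. Large subunit genes had a peak at 12 of 41 (29.3%, 16.1% to 45.5%) and small subunit genes at 7 of 29 (24.1%, 10.3% to 43.5%), and these intervals overlapped over most of their width. The peaks were moderate in signal. Per gene the median was 46.2, with 44.2 for the large and 55.2 for the small subunit, against 53.9 over all protein-coding genes with a peak. The 18 distinct peaks, 1 of which served both mrps-24 and mrpl-1, ran from 39.2 to 93.5 with a median rank of 1133.5 of 1684. Of these, 6 exceeded the median nuclear signal of 52.2, while 520 of the 1007 nuclear peaks at any coding start did. Counting only peaks above that median, 7 of the 70 genes had one, beside 3.60% of all protein-coding genes. At the ceiling of the authors' −log10 q-value, 2.68, stood 10 of the 18, and 1164 of the 1684 nuclear peaks.

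**Figure D1:**
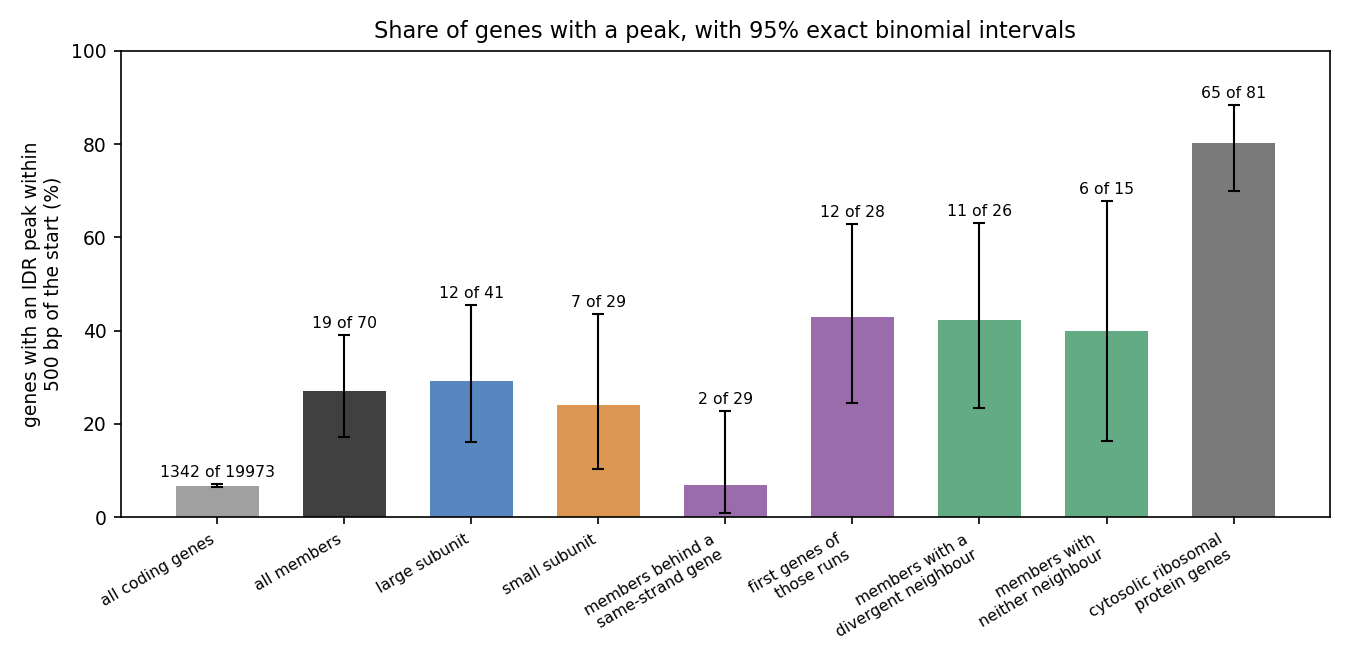
Share of genes with an IDR peak within 500 bp of the start (vertical axis, %) for the mitochondrial ribosomal protein genes, their subgroups, all protein-coding genes and other lists, with exact 95% binomial intervals as bars. The whole list stands at 27.1%, the large subunit at 29.3% and the small subunit at 24.1%, beside 6.72% of all protein-coding genes.

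By family class in the RefSeq names, a peak lay at 7 of 23 u proteins, 4 of 9 b proteins and 5 of 19 m proteins. Of the 19 genes whose product gives no such class, 3 had one. Every class therefore held genes with and without a peak. By chromosome, genes with a peak were 7 of 22 on III, where 10.5% of all coding genes had one, and 5 of 15 on I, beside 9.38%. They were 4 of 11 on IV, beside 7.56%, 2 of 12 on II, beside 6.84%, and 1 of 10 on V, beside 4.27%. No gene of the list is on X.

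Among small subunit genes, the strongest peak lay 145 bp upstream of mrps-17 (III:6431765-6432120, signal 82.6, rank 233). Its product uS17m, like uS7m and uS15m, belongs to a family whose bacterial members bind ribosomal RNA early in assembly. The peak of mrps-7, for uS7m, lay 215 bp upstream (IV:14767767-14768122, signal 77.4, rank 285). The summit at mrps-15, for uS15m, was 2 bp upstream of its start (I:8692446-8692801, signal 55.2, rank 723). All 3 of these peaks also lay within reach of another coding start, described with the shared peaks. The peak at mrps-24 had a signal between those of mrps-7 and mrps-15, and its RefSeq product is uS3m, a protein that in bacteria lines the channel by which messenger RNA enters. Its summit lay 162 bp upstream (IV:7709705-7710060, signal 66.9, rank 428).

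The other 3 small subunit peaks were weaker. At mrps-23, for the mitochondria-specific mS23, the signal was 46.2 with the summit 136 bp upstream (III:9523630-9523985). At mrps-31, for mS31, it was 46.0 at 257 bp upstream (III:3630451-3630806). At mrps-18B, a relative of bacterial S18, it was 44.5 at 134 bp upstream (II:8525369-8525724). None of these 3 reached the median nuclear signal.

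Among large subunit genes, mrpl-49 had the strongest peak, 164 bp upstream (V:12728289-12728644, signal 93.5, rank 151). It encodes the mitochondria-specific mL49. Next came mrpl-17, for bL17m, at 202 bp upstream (I:3162433-3162788, signal 68.1, rank 409). The peak shared with mrps-24 lay 182 bp upstream of mrpl-1, whose bacterial relative forms the mobile stalk beside the exit site for transfer RNA. Only these 3 of the 12 large subunit genes exceeded the median nuclear signal.

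The remaining large subunit genes ran from 50.3 down to 39.2. The highest was mrpl-45 at 341 bp upstream (III:1202171-1202526), for mL45, which in mammals tethers the ribosome to the inner membrane. It was followed by mrpl-28 (bL28m, II:155891-156246) at 47.4 and 60 bp upstream, and mrpl-55 (IV:443706-444061) at 45.3, with its summit also upstream. Then came mrpl-9 (bL9m, I:10733653-10734008) at 43.1 and 165 bp upstream. The peak at mrpl-47, whose product is uL29m, of a family at the rim of the bacterial exit tunnel, was the one summit inside the gene, 9 bp past the start (I:5244114-5244469, signal 42.4). The rest of this range had summits farther upstream. For mrpl-18, whose product uL18m has bacterial relatives in the central protuberance, the signal was 41.7 at 262 bp upstream (III:8144575-8144930). For mrpl-32 (bL32m, III:8449128-8449483) it was 41.7 at 451 bp upstream. For mrpl-34, annotated as mL43 (I:10192796-10193151), it was 40.4 at 268 bp upstream. The lowest was mrpl-11 (III:8717261-8717616) at 39.2 and 205 bp upstream, for uL11m, of a family at the base of the stalk that engages translation factors.

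Across the 19 genes, 18 summits were upstream, and the median position was -165 bp (quartiles -236 and -135 bp, negative being upstream). It was -192 bp for the large and -145 bp for the small subunit, -191.5 bp for all genes with a peak and -281 bp for cytosolic ribosomal protein genes. The rule bounds these positions at 500 bp on either side.

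**Figure D2:**
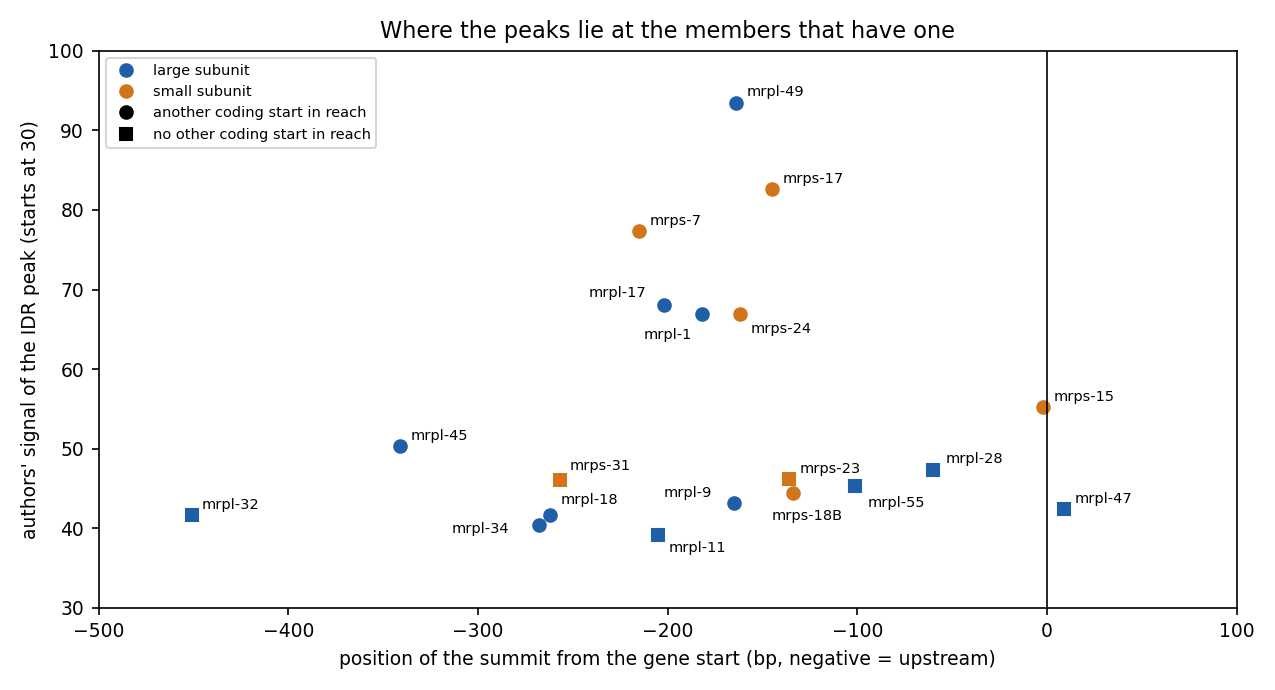
Position of the summit from the gene start (horizontal axis, bp, negative is upstream) against the authors' signal of the IDR peak (vertical axis, from 30) for the 19 genes, coloured by subunit, with squares where no other coding start lay within 500 bp of the summit. All squares lie at a signal of 47.4 or below, and the peaks above 52.2 are circles.

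Most of these peaks could not be assigned to a mitochondrial ribosomal protein gene alone. Of the 18, 11 (61.1%) also lay within 500 bp of another protein-coding start, against 330 of the 1007 nuclear peaks at coding starts (32.8%). All 6 peaks above the median signal were shared in this way, and the 7 unshared ones ran from 39.2 to 47.4. The strongest, at mrpl-49, was also 355 bp upstream of rpl-28, which encodes the cytosolic ribosomal protein eL28. The mrps-17 peak was also upstream of txdc-9 (a thioredoxin domain protein), which starts farther from the summit than mrps-17 does, and that of mrps-7 was 256 bp upstream of Y57G11C.3, a putative 6-phosphogluconolactonase. For mrpl-17 the neighbour was vbh-1, an RNA helicase gene, 220 bp from the summit. At mrps-15 it was asg-1, for an ATP synthase subunit, 322 bp away. The summit between mrps-24 and mrpl-1 was 147 bp upstream of emc-6, a subunit of the membrane protein complex of the endoplasmic reticulum. By this IDR summit emc-6 is nearer than either ribosomal gene. In replicate 1 alone the summit was at -148 bp from mrps-24, which was then the nearest start.

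Among the weaker shared peaks, Y119D3B.12, encoding a Luc7-like protein, lay nearer to the summit than mrpl-45 did, at 197 bp. The same held for C14B9.8, a phosphorylase kinase regulatory subunit gene, at 124 bp beside mrpl-18, and for lid-1 at 142 bp beside mrpl-34. By contrast prp-9 (151 bp, beside mrps-18B) and the casein kinase II gene kin-3 (191 bp, beside mrpl-9) lay farther from the IDR summit than the ribosomal gene. In replicate 2 alone these 2 orders reversed. Its summits were at -169 bp from mrps-18B and -199 bp from mrpl-9, nearer to prp-9 and kin-3. Counting each peak only for the start nearest to its IDR summit left 14 of the 70 genes, beside 5.02% of all protein-coding genes. This count takes no account of where the summits lay in each replicate. Without the shared peaks, a count added after seeing the data, 7 of the 70 had a peak, beside 3.37% of all protein-coding genes. Which of the paired genes, if either, responds to F23B12.7 was not tested by these data. No transfer RNA, small nucleolar, small nuclear or ribosomal RNA gene lay within 250 bp of any of the 18 summits, while 70 of the 1007 had one.

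Neighbours sorted the genes further. A gene was counted as downstream in a run when its nearest upstream coding gene was on the same strand and ended within 500 bp of its start or overlapped it, a stand-in for operon membership, since no operon annotation was used. This applied to 29 of the 70. Of these 29, 2 had a peak at their own start (6.90%, interval 0.846% to 22.8%), beside 5.1% of all genes in that position. Both were large subunit genes, mrpl-1 and mrpl-32, of 16 large and 13 small subunit genes there. Of the 41 genes not downstream, 17 had a peak (41.5%, 26.3% to 57.9%), beside 7.13% of all such genes. Here the subunits stood at 10 of 25 and 7 of 16.

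The 41 genes divided by whether a gene on the opposite strand started close by. With a divergent neighbour within 1000 bp, 11 of 26 had a peak (42.3%, 23.4% to 63.1%), beside 19.6% of all genes so placed. With neither kind of neighbour, 6 of 15 had one (interval 16.3% to 67.7%), beside 3.32% of all such genes. The members' observed shares were thus close in both settings while the shares of all genes were not. The members' intervals are too wide to show that their shares are equal. Signals ran from 40.4 to 93.5 at the 11 members beside a divergent gene and from 39.2 to 47.4 at the 6 with neither. Over all genes with a peak so placed, the median signals were 56.5 and 50.8, and the highest 238.3 and 310.0. The low ceiling with neither neighbour thus rests on 6 members and was not seen over all genes. Members that opened a run of their own had a peak in 10 of 18 cases (55.6%, 30.8% to 78.5%), beside 14.5% of all genes that open one. Those in no run had one in 7 of 23 (30.4%, 13.2% to 52.9%), beside 5.52% of all genes in no run.

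For the downstream genes, the start of the first gene of the run was examined as well. It had a peak for 13 of the 29, beside 16.1% of all downstream genes. Counted over runs, 12 of 28 distinct first genes had a peak (42.9%, 24.5% to 62.8%), beside 14.5% of all first genes. In 11 of the 13 cases the ribosomal gene had no peak at its own start. The strongest lay 193 bp upstream of eif-3.E, a translation initiation factor subunit, with a signal of 105.8 and rank 85, in the run that holds cdc-26 and mrps-30. Its signal was above that of every peak at a mitochondrial ribosomal gene itself. The peak at atp-2, the ATP synthase beta subunit, had 85.5 and leads to mrps-26 through prmt-5. That at T14B4.3 had 71.8 and leads to mrps-18.C, a gene separate from mrps-18C. All 3 of these runs hold a small subunit gene.

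Further such peaks were at clsp-1 (66.6, before mrpl-54) and at F21D5.7, the signal recognition particle subunit SRP54 (58.7, before mrps-33). The peak at natc-1, a subunit of an N-terminal acetyltransferase, had 53.1 and stands before mrps-2 and mrpl-4, the only run here with genes of both subunits. Weaker ones were at znf-706 (47.1, before mrpl-42), vps-37 (40.5, before mrpl-48) and W04D2.4 (40.1, before mrps-11). The weakest, 38.1 with rank 1682, was at F29B9.11, which encodes cytochrome c oxidase subunit VIIc and stands before mrps-21. The znf-706 summit lay 498 bp from its start, at the edge of the reach. Most of these peaks at first genes were in turn within 500 bp of another coding start and cannot be assigned to the run alone. These were clsp-1 with eef-2, atp-2 with C34E10.10 and C34E10.12, and natc-1 with dnj-22. The others were znf-706 with cpna-3, W04D2.4 with rbm-25 and F29B9.11 with jmjd-1.2. Those at eif-3.E, T14B4.3, F21D5.7 and vps-37 were not shared.

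In 2 runs both the first gene and the ribosomal gene had a peak. The starts of emc-6 and mrpl-1 are 35 bp apart and share 1 peak. At rpn-3, a proteasome subunit gene, a peak of 72.3 lay 212 bp upstream of the start, and the separate mrpl-32 peak of 41.7 lay near the far end of rpn-3, whose annotated end is 410 bp from the mrpl-32 start. Counting a peak at the own start or at the first gene of the run, 30 of 70 genes had one (42.9%, 31.1% to 55.3%), against 9.73% of all protein-coding genes. This rule gives only downstream genes a further start to count. They were 29 of the 70, but 4003 of all 19973 protein-coding genes, so these 2 shares are not like for like. Some members also share a peak, which the interval does not take into account.

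**Figure D3:**
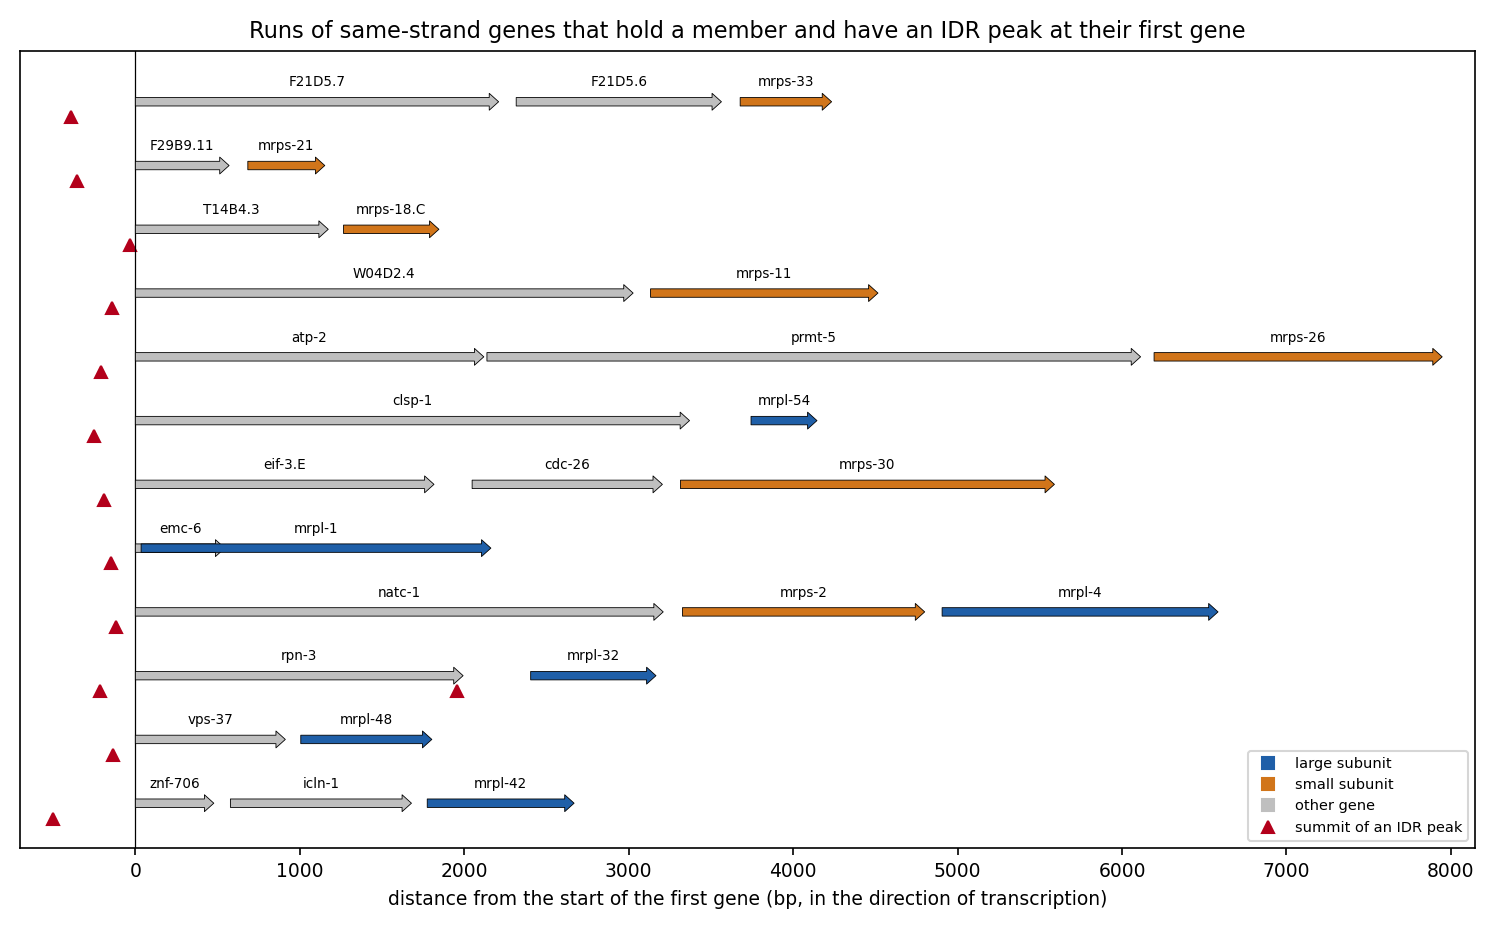
Runs of same-strand genes that hold a mitochondrial ribosomal protein gene and have an IDR peak at their first gene, drawn to scale by distance from the first gene's start in the direction of transcription (bp), with the ribosomal genes coloured and summits marked. The runs led by emc-6 and rpn-3 are those in which a ribosomal gene has a summit within 500 bp of its own start, and in the former mrpl-1 is drawn over most of emc-6, which it overlaps.

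The other 16 downstream genes had no IDR peak at the first gene. Among the first genes concerned were fars-1, a phenylalanine tRNA ligase gene ahead of mrpl-23, and rpb-6, an RNA polymerase subunit gene ahead of dap-3 and mrps-22. The chaperonin gene cct-2, ahead of mrpl-50, was another. These had regions of the pooled list only, with signals of 35.4 at cct-2, 26.7 at rpb-6 and 8.26 at fars-1. The other first genes had such a region too, except T08A11.1, ncr-2, F56B3.9 and num-1. The dap-3 product is mS29, itself a mitochondrial ribosomal protein with a different kind of name, and it had no IDR peak at its start either.

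The authors' pooled list of 30000 regions, which includes background, gave values for most of the other genes. Its signals are those of the IDR list where regions coincide, and the strongest nuclear region outside the IDR list stood at 38.0. Of the 51 genes without an IDR peak, 37 had a pooled region within 500 bp (72.5%, 58.3% to 84.1%), beside 32.7% of all genes without an IDR peak. Their median signal was 16.7 (range 9.15 to 36.8), against 14.9 over all such genes. Large subunit genes had a region in 19 of 29 and small subunit genes in 18 of 22 cases. Downstream genes had one in 18 of 27 cases, at a median signal of 14.2, where all such genes had a region in 41.9% of cases. Genes not downstream had one in 19 of 24 cases, at a median of 28.4, where all such genes had a region in 30.3% of cases at a median of 15.2. The widest ratio between successive values, noticed after they were seen, fell between mrpl-39 at 27.1 and mrpl-2 at 20.6. Of the 12 genes above it, 11 were not downstream, against 8 of the 25 below it. The split was chosen from these values, and no share of all genes was taken at it. At a gap of at most 1000 bp, mrps-16 and mrps-18C above it (556 and 630 bp) would also count as downstream. The same holds for mrpl-38 and mrpl-46 below it (722 and 897 bp).

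The strongest of these were just below the IDR list. The pooled signal of mrpl-36, 145 bp upstream, was 36.8 (rank 1794), and that of mrps-16, 193 bp upstream, was 36.2 (rank 1852). For mrps-6, 308 bp upstream, it was 35.1, and for mrpl-19, 158 bp upstream, 32.4. These 4 are relatives of bacterial ribosomal proteins, and mrpl-19 was the one downstream gene among the 8 strongest. Next were mrps-18C at 31.4, mrps-18A at 31.1, mrps-34 at 30.6 and mrpl-20 at 30.5. The weakest IDR peak at a member, 39.2 at mrpl-11, stood little above mrpl-36, so these genes differ little in signal from the weakest with an IDR peak.

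No region of the pooled list lay within reach of 14 genes, which were mrpl-4, mrpl-10, mrpl-12, mrpl-15, mrpl-22, mrpl-23, mrpl-24, mrpl-30, mrpl-51, mrpl-53, mrps-2, mrps-9, mrps-21 and mrps-33. Among them are mrpl-10 and mrpl-12, whose bacterial relatives form the stalk above uL11. In the run led by natc-1, both mrps-2 and mrpl-4 are in this set. In the list of a single replicate, 5 of the 14 did have a region, namely mrps-9 in replicate 2 at rank 2120 (signal 15.3) and, much weaker in rank, mrpl-15, mrpl-23 and mrps-2 in replicate 2 and mrps-21 in replicate 1. The other 9 had none in either. No matching count was made over all genes, and the replicate lists also include background, so these counts are a description only. A gene without a region here was below the authors' list of 30000, which with unknown depth does not show that binding was absent.

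**Figure D4:**
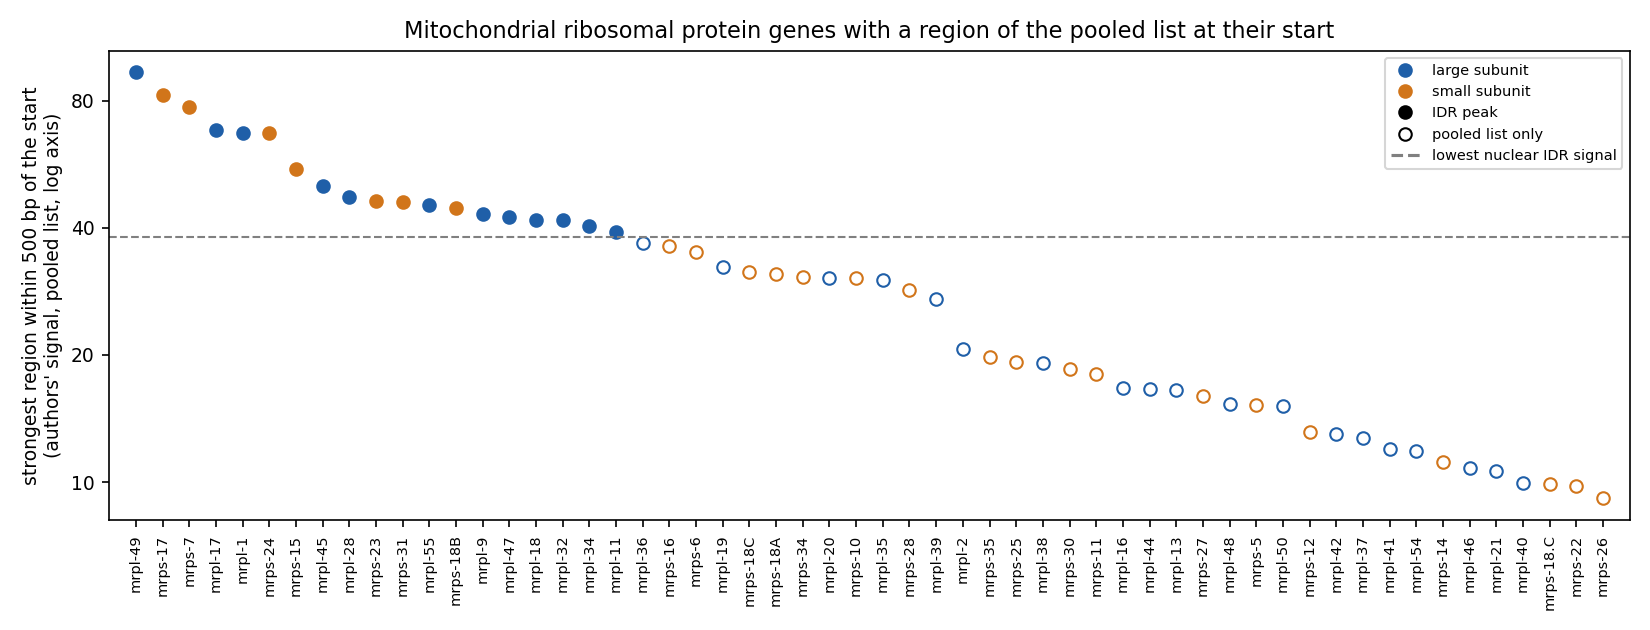
Signal of the strongest region of the pooled list within 500 bp of the start (vertical axis, authors' signal, log scale) for each mitochondrial ribosomal protein gene that has one, ordered by signal and coloured by subunit, with the lowest nuclear IDR signal dashed. The 19 genes with an IDR peak (filled) stand at 39.2 to 93.5 and the 37 others (open) at 9.15 to 36.8.

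The replicates ranked the same peaks differently. All 18 peaks were matched by a region in both replicate lists, at median ranks of 924.5 in replicate 1 and 1161 in replicate 2. Ranks ran from 70 to 3117 in replicate 1 and from 134 to 10803 in replicate 2. Among the nuclear regions of the 1707 strongest of each replicate were 12 of the 18 peaks in replicate 1, 11 in replicate 2 and 6 in both (33.3%). Over all nuclear IDR peaks the corresponding shares were 81.3%, 71.0% and 56.8%. The 6 member peaks in both were those above the median nuclear signal, and each was also in reach of another coding start. No unshared peak was among them. Signals cannot be compared between the replicate lists, but ranks can.

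The mrpl-49 peak had rank 70 in replicate 1 (signal 70.0) and 528 in replicate 2 (signal 26.2). For mrps-17 the ranks were 352 and 176, for mrps-7 433 and 134. These 3 ranked within the strongest 1707 regions of both replicates. By the ratio of the ranks, the widest split among the member peaks was at mrps-31, with rank 656 in replicate 1 (signal 36.9). In replicate 2 it had rank 10803 (signal 6.95), a ratio of 16.5. The strongest peak, at mrpl-49, came next with a ratio of 7.54. At mrpl-32 the ranks were 3117 and 498, with replicate 2 the higher. For mrpl-47 they were 952 and 4878, and for mrpl-11 1002 and 4821, so wide splits occurred among both strong and weak peaks.

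Taking the strongest 1707 regions of a replicate alone in place of the IDR list kept 13 of the 19 genes with replicate 1 and 12 with replicate 2, and 7 with both. With the genes added, 14 and 15 members had a peak, beside 6.42% and 6.13% of all protein-coding genes. The large subunit count was 7 without replicate 1 and 8 without replicate 2, as against 12. Replicate 1 added mrpl-36, and replicate 2 added mrps-6, mrps-16 and mrps-10. The mrpl-34 peak was lost with either replicate alone.

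**Figure D5:**
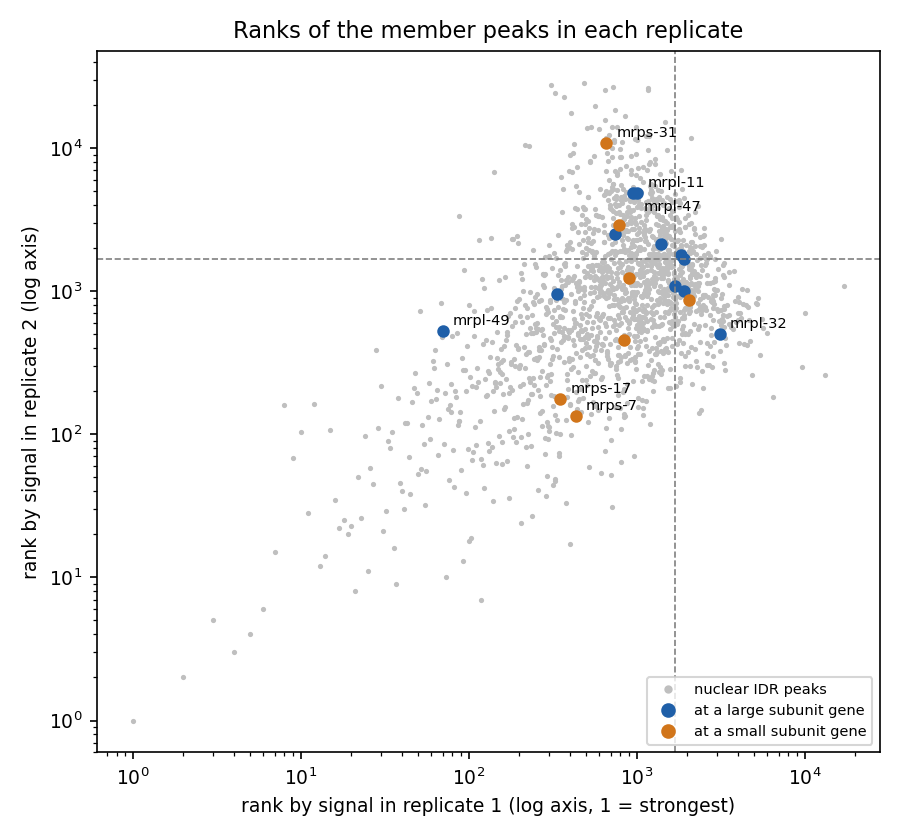
Rank by signal in replicate 1 (horizontal) and replicate 2 (vertical), both on log axes with 1 as the strongest, for the 18 peaks at mitochondrial ribosomal protein genes over all nuclear IDR peaks in grey. Among the 18, the peak at mrps-31 stands apart at ranks 656 and 10803, and that of mrpl-49 is near the strong corner at 70 and 528. The grey peaks reach rank 28616 in replicate 2, so the split at mrps-31 is not extreme among them.

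The sequences around the summits were searched for short motifs on both strands within 50 bp of each summit or start. CCAAT was in 1 of the 18 windows at these genes (5.56%), beside 15.8% of all nuclear IDR windows and 19.5% of windows at all coding starts. CACGTG, the E-box core, was in 0, beside 3.15% and 1.86%. GAGA was in 12 of 18 (66.7%), beside 68.3% and 58.0%. TTTCAG, the letters of the worm splice acceptor, was in 2 (11.1%), beside 8.19% and 32.6%. None of these shares rests on more than 18 windows. GC content had a median of 43.6% at the 18 peaks, 45.5% at all nuclear IDR peaks and 35.6% at all coding starts.

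The letters GCGCTCC, capitalised in the printed windows, occurred in 5 of the 18, those of mrpl-49, mrps-24, mrpl-45, mrpl-55 and mrpl-47. They were in 6.06% of all nuclear IDR windows, 7.90% of those at coding starts without an RNA gene nearby, 0.431% of windows at all coding starts and 0.701% of windows 250 bp upstream of them. Since the letters were chosen from these windows, their count of 5 is a description only. Signals of the 5 ranged from 42.4 to 93.5, and mrps-17 and mrps-7, next in signal to mrpl-49, lacked them.

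Other genes of the same organelle were counted for comparison. Of 33 names looked for among factors of mitochondrial translation and mitochondrial DNA expression, 22 were found, and 5 of these had an IDR peak (22.7%, 7.82% to 45.4%). They were ears-2, a glutamyl-tRNA synthetase (86.2), the elongation factor Tu genes tufm-1 (58.5) and tufm-2 (57.1), mtss-1, the single-stranded DNA binding protein (47.1), and yars-2, a tyrosine tRNA ligase (41.6). No IDR peak lay at the elongation factor genes tsfm-1 and gfm-1, the recycling factor gene mrrf-1, the mitochondrial RNA polymerase gene rpom-1 or the DNA polymerase gene polg-1. Of 15 protein import genes, 4 had one (26.7%, 7.79% to 55.1%), namely tin-9.2 (80.1), tomm-20 (78.7), mppb-1 (50.3) and tin-44 (38.9). The first list includes dap-3, itself a mitochondrial ribosomal protein gene, which had no IDR peak. Over all protein-coding genes the share was 6.72%. The intervals of both lists are wide and include the 27.1% of the mitochondrial ribosomal protein genes.

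Cytosolic ribosomal protein genes had peaks more often. Of 81, 65 had an IDR peak (80.2%, 69.9% to 88.3%), at a median signal of 92.9, which only mrpl-49 exceeded among the mitochondrial genes, with a peak also in reach of rpl-28. Only 9 of the 81 were downstream in a run, as against 29 of the 70. Among genes not downstream the shares were 62 of 72 (86.1%, 75.9% to 93.1%) and 17 of 41 (41.5%), whose intervals did not overlap.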

How the data were processed

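Peak lists from 2 biological replicates of 1 group were used. The authors deposited, per replicate and for both pooled, 30000 peaks and background regions, and a list that passed an IDR test. Each region carries a signal and a −log10 q-value made by the authors. The aligner, caller, kind of control and IDR threshold were not given in the sources used here. The lists hold no read totals, so depth is unknown. Replicates were not tested against each other, and no p-value was computed.

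The ce11 lists were joined to Ensembl release 115 genes of WBcel235, whose chromosome lengths fit. Products and sequences came from RefSeq. The ce10 lists were not used here. Summits were the deposited start plus offset, and only nuclear regions were ranked. A gene's strongest peak in reach was used. Regions of the replicates sharing 1 bp or more with an IDR peak were taken as its match. Shares carry Clopper-Pearson 95% intervals. The code that finds genes in reach of a summit and orders runs was checked on made-up lists with known answers, which is no test against chance. Python 3.11.15, pandas 2.3.3 and scipy 1.17.1 were used.

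Genes named were all members with an IDR peak, the 8 of highest pooled signal among the rest, neighbours in reach, first genes of runs, and the other mitochondrial lists. The members and lists were chosen with earlier results of these data known. Alternatives were other reaches, a higher signal, other start and gap rules, and each replicate alone. Removing shared peaks was added after seeing the data. Genes singled out for lacking a peak were chosen after their values were seen.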

Additional observations from a re-analysis of the deposited data

How the results depend on the processing

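Of 43 alternatives over 9 counts and medians, 31 stayed close, 12 moved and 0 reversed, although a count has no direction to reverse. Close meant within 1.5 times the reported count or, for the median position, within 8.84 bp, the SD between its values from each replicate alone. Counts were compared without their totals, which some alternatives also changed. With IDR peaks above the median signal, 7 members had a peak (3 large, 4 small subunit), and all 6 of their distinct peaks were shared with another coding start. Without peaks shared with another coding start, an alternative chosen after seeing the data, 7 members had a peak and 1 downstream gene had one of its own. A gap of at most 250 bp also left 1 of 23 downstream genes with an own peak. A reach of 250 bp gave 5 shared peaks of 13 and a median position of -153.5 bp, and a reach of 1000 bp gave -182 bp. With 1 replicate left out, members with a peak numbered 14 to 15 (beside 6.42% and 6.13% of all coding genes), large subunit members 7 to 8 and small subunit members 6 to 8, and the median position was -181.5 to -169 bp. Without replicate 1, the large subunit count was 7, against 12. The cause of these moves was not tested, apart from the fewer peaks that the stricter rules use. No paired analysis was possible because there was 1 group. Depth is unknown, and weak peaks near the IDR limit cannot be told from background by these lists.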
